A study of Mus musculus with 2 samples.

Results

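The hedgehog and parathyroid hormone (PTH) receptor axis was described by 9 genes, Pth1r, Pthlh, Ihh, Ptch1, Smo, Gli1, Gli2, Gli3 and Hhip. The list follows the pathway and no signal threshold entered it, although earlier results of these data were known when it was drawn up, and every probe set annotated to exactly 1 of them was read. Of 18193 genes named on the array, 8 belonged to the list and were read by 18 probe sets, a probe set being a group of short oligonucleotides for 1 transcript. Pthlh had no probe set that carried its name in the annotation used, so its level is not given here.

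The cells were primary osteoblasts of newborn Slc39a13-KO mice, against the same kind of culture from wild-type mice, with 1 array of each. Slc39a13, also named ZIP13, is a zinc transporter of the Golgi. The KO allele, made in R1 embryonic stem cells and carried in every cell of the animal, holds a Neo cassette in place of the exons that encode a conserved motif of the SLC39 family. Calvaria, the flat bones of the skull vault, were digested in steps with collagenase and dispase, and cells of the later steps were grown in medium with fetal calf serum and antibiotics, the same for both genotypes. Slc39a13 was at 90.4 in Slc39a13-KO and 1309 in wild-type on 1 probe set, whose position relative to the removed exons was not established. For the array cultures the sources used here do not state the strain, the sex or how many pups went into each. Since each genotype has a single array and hence no replicate, no test and no p-value was computed, and the only error at hand was technical, the spread between probe sets that read 1 gene on the same arrays.

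In the hedgehog pathway a secreted ligand such as Indian hedgehog (Ihh) binds the receptor Patched 1 (Ptch1). Unbound Ptch1 keeps the membrane protein Smoothened (Smo) inactive, and once freed, Smo acts in the primary cilium on the transcription factors Gli2 and Gli3, which then switch on target genes, among them Gli1, Ptch1 and Hhip. In the growth plate of long bones, Ihh from chondrocytes about to enlarge raises PTH-related protein (Pthlh), which acts through the PTH receptor (Pth1r) to delay that enlargement. Ihh is also needed for osteoblasts to form in long bones, and Pth1r carries the action of PTH on osteoblasts.

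Of the 9 genes, the receptors stood higher in Slc39a13-KO osteoblasts. The ligand and the targets Gli1 and Hhip were near or below the floor chosen here, which is defined further on. Pth1r was 5.20-fold and Ptch1 3.39-fold higher in Slc39a13-KO cells, and Smo was 1.93-fold higher, just short of the 2-fold threshold of the study. Gli2 and Gli3, the main effectors, were not called, with Gli2 on the lower and Gli3 on the higher side. Scaling on the poly-A controls, bacterial transcripts spiked into the RNA, shifts every signal of an array by 1 factor before the floor is applied. It put both genes on the higher side, while their log2 ratios minus the median of all genes were still -0.31 for Gli2 and 0.27 for Gli3. In bulk cultures more cells of a type and more RNA per cell cannot be told apart. Signals below a floor of 85.1, the 50th percentile of all values, were set to the floor, and a gene counted as measured if at least 1 of its probe sets was above it in at least 1 array. By this measure 6 of the 9 genes were measured.

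The sequences before the start sites of the genes that differed are shown here, with Hhip as the 1 gene that held a cyclic AMP response element, since PTH acts on osteoblasts largely through cyclic AMP. The RefSeq (GRCm38.p6) start sites used here covered 8 of the 9 genes, with no window for Gli1. They gave 10 windows of 250 bases that end at the base before the start. Each was searched on both strands for GACCACCCA, the Gli binding motif, TGACGTCA, the cyclic AMP response element, and GGGCGG, the GC box bound by Sp1. The Gli motif was in 0 of the 10 windows, against 0.225% of 32851 windows of all genes, and the cyclic AMP response element was in 1, against 1.55%. With so low a share over all genes, 0 Gli motifs in 10 windows is the likely count for any set of genes, and nothing is read from it. The GC box was in 8 of the 10, against 32.7% of all windows, but the 10 windows were also rich in G and C, with 56% to 78.4% against a median of 52.4% for all windows; the part of base composition in this count was not tested. Pth1r has 3 start sites in RefSeq, all on the minus strand, and the windows run 5′ to 3′ with matches in capitals. No match overlapped another.
Pth1r, upstream start, chr9:110747146-110747395: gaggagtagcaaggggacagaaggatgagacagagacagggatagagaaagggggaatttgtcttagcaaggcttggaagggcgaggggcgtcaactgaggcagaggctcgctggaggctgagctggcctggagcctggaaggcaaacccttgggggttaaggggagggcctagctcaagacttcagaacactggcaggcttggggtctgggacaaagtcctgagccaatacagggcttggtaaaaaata
Pth1r, middle start, chr9:110743687-110743936: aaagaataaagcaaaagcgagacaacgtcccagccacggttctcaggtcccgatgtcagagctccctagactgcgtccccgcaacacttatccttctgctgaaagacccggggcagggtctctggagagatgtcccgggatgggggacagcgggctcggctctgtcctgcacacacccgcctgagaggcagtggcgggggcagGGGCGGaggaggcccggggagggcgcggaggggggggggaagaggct
Pth1r, downstream start, chr9:110742611-110742860: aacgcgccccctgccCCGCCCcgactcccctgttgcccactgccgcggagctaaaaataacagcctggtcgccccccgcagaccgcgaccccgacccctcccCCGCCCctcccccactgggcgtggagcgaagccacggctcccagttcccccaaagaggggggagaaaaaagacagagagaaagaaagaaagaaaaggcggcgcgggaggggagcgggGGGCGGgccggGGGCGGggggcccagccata
Ptch1, minus strand, chr13:63565736-63565985: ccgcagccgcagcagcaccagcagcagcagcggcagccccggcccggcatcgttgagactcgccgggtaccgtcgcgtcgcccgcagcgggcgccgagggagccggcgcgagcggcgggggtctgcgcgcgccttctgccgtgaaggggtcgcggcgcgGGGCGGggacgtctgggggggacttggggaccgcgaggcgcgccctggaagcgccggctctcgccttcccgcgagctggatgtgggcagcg
Hhip, minus strand, chr8:80058009-80058258: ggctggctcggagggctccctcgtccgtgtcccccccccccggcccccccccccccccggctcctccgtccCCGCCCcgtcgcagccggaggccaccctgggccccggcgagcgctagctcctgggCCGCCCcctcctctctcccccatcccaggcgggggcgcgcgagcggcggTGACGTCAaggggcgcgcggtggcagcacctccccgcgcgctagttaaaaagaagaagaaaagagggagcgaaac
The Pth1r windows differed in their number of GC boxes, with 0 at the upstream, 1 at the middle and 4 at the downstream start. The Ptch1 window held 1, which began 91 bases before the start. In Hhip the cyclic AMP response element began 75 bases before the start. A match in these letters is a description and does not show that a factor binds, and which Pth1r start the cells used cannot be read from 1 probe set.

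Pth1r, the G protein-coupled receptor for PTH and PTH-related protein, was read by 1 probe set with a signal of 1534 in Slc39a13-KO and 295 in wild-type osteoblasts. Both signals were well above the floor, and the log2 ratio was 2.38. Of 12269 measured genes, 150 (1.22%) had a ratio at least as high. With 1 probe set the technical spread of this value is not known.

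Ptch1, the hedgehog receptor and itself a target of the pathway, was read by 3 probe sets, of which 1 was above the floor. Its signal was 1204 in the Slc39a13-KO array and 356 in the wild-type array, a log2 ratio of 1.76. The other 2 probe sets lay below the floor in both arrays, at 53.9 in Slc39a13-KO against 19.3 in wild-type, and at 5.13 in Slc39a13-KO against 16.8 in wild-type, and pointed opposite ways. When these low probe sets entered the mean with no floor, the log2 ratio of Ptch1 was 0.51, so its call rests on the 1 bright probe set.

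Smo, the membrane protein that Ptch1 holds inactive, lies on chromosome 6 and had 2 measured probe sets that agreed closely. Their signals were 4532 in Slc39a13-KO against 2399 in wild-type, and 2770 in Slc39a13-KO against 1401 in wild-type. The log2 ratio was 0.95 ± 0.05 (SD, n = 2 probe sets), where the median SD over the 5700 genes with several measured probe sets was 0.34. Both probe sets were annotated with the same source sequence, so they are not independent readings. The last Smo probe set was at 3.64 in Slc39a13-KO and 2.89 in wild-type, below the floor.

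**Figure D1:**
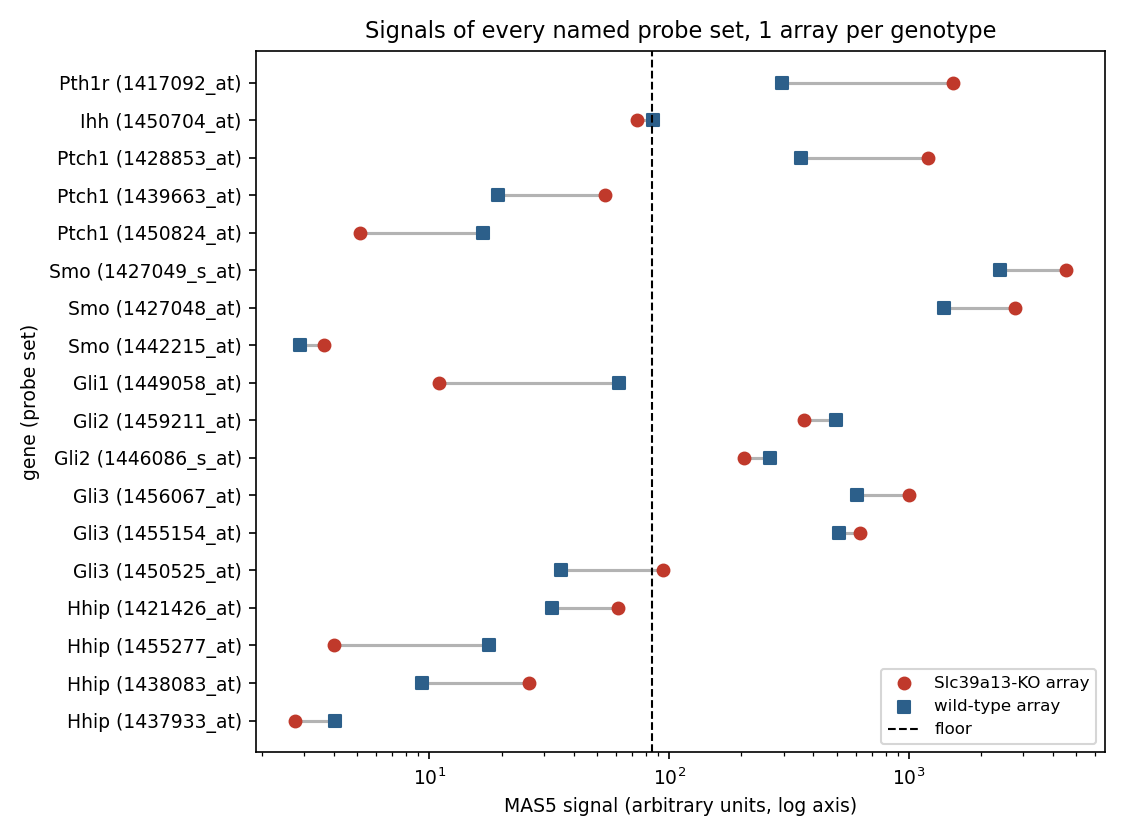
MAS5 signals (horizontal, log axis) of the 18 probe sets of the 8 genes with a named probe set, with red circles for the Slc39a13-KO array, blue squares for the wild-type array and a dashed line at the floor of 85.1. The points for Pth1r, the bright Ptch1 probe set and both bright Smo probe sets lie to the right in the Slc39a13-KO array, and Gli1 and all 4 Hhip probe sets lie left of the floor in both arrays.

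Gli2, on chromosome 1, which acts mainly as the activator of hedgehog target genes, had signals of 366 in Slc39a13-KO against 498 in wild-type, and 206 in Slc39a13-KO against 263 in wild-type, on 2 probe sets with the same source sequence. The log2 ratio was -0.40 ± 0.06 (SD, n = 2 probe sets), which turned to 0.64 under poly-A scaling, where the median of all genes was 0.95. Gli3, on chromosome 13, which acts mainly as a repressor when no ligand is present, was read by 3 probe sets. Its signals were 998 in Slc39a13-KO against 607 in wild-type, 628 in Slc39a13-KO against 513 in wild-type, and 94.2 in Slc39a13-KO against 35.3, below the floor, in wild-type. All 3 were on the higher side, with a mean log2 ratio of 0.39 ± 0.30 (SD, n = 3 probe sets). This mean is a bound, since the floor cut the ratio of the dimmest probe set, and it was 0.81 with no floor. Neither gene reached the 2-fold threshold, and the spread of Gli3, taken after the floor, was close to the median of all genes.

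Gli1, a transcription factor that is commonly read as the output of the pathway, was read by 1 probe set at 10.9 in Slc39a13-KO and 61.7 in wild-type. Both values were below the floor, so no fold is given. Hhip, a membrane protein that binds and takes up hedgehog ligands, was below the floor in both arrays on all 4 probe sets, of which the brightest had 61.4 in Slc39a13-KO and 32.5 in wild-type. Ihh, read by 1 probe set, was at 73.3 in Slc39a13-KO, below the floor, and at 85.8 in wild-type, just above it. Hence Gli1, Hhip and Ihh, as measured here, did not permit a comparison between the genotypes, and Ptch1 was the only target among the 9 with a signal clearly above the floor.

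Of the 6 measured genes, 2 (Pth1r and Ptch1) were at least 2-fold higher in Slc39a13-KO osteoblasts and 0 were lower. Over all 12269 measured genes, 983 (8.01%) were called higher and 727 (5.93%) lower, where a call needs at least 2-fold and the same sign in all measured probe sets. With 6 genes, 2 called is a small number to set against 8.01%, and nothing particular to the axis is read from it. The median log2 ratio of the 6 was 0.67, against 0.11 for all measured genes. Ihh counted as measured through the wild-type array alone, and Gli3 had 1 probe set that was above the floor in the Slc39a13-KO array alone.

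**Figure D2:**
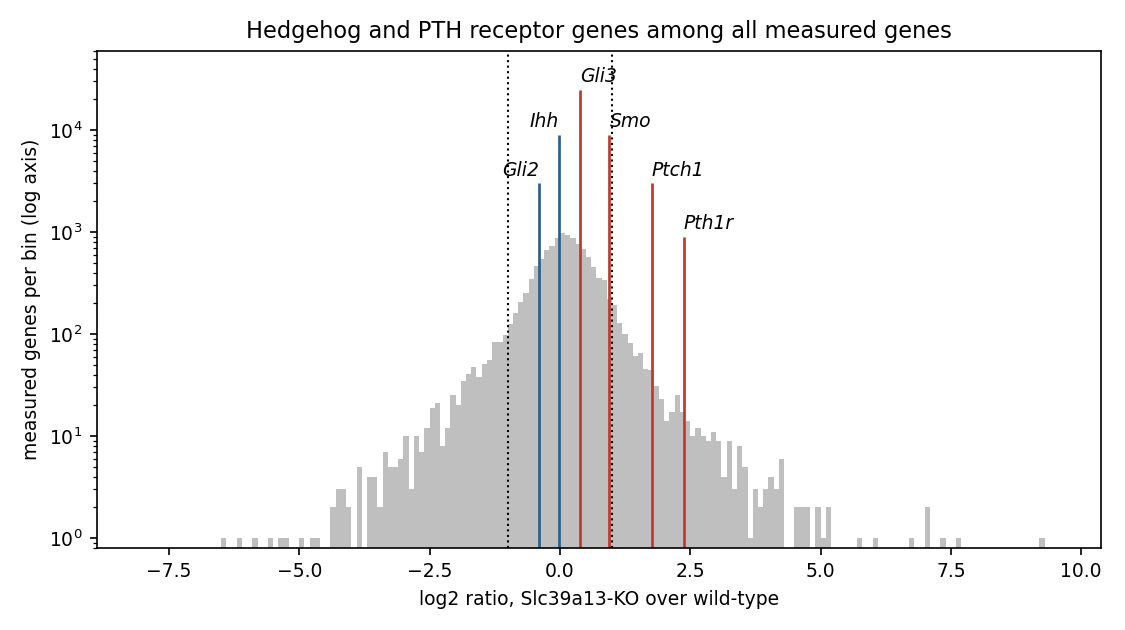
Horizontal, log2 ratios (Slc39a13-KO over wild-type) of all 12269 measured genes, in bins of equal width with the number of genes on a log axis (vertical), and lines at the 6 measured axis genes, whose heights carry no value; dotted lines mark 2-fold. Pth1r (2.38) and Ptch1 (1.76) lie beyond the 2-fold line, Smo (0.95) just inside it, and Gli3 (0.39), Ihh (-0.01) and Gli2 (-0.40) in the body of the distribution, where Ihh and Gli2 turn to the higher side under poly-A scaling.

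Other genes of the hedgehog pathway were read from a list of 37, of which 35 had a named probe set and 27 were measured. Of these 6 were called higher and 1 lower, beside 8.01% and 5.93% of all measured genes, and 22 had a log2 ratio above 0, as had 58.3% of all measured genes. Their median was 0.32, against 0.11 for all measured genes. The co-receptors, which present ligand to Ptch1, were among those higher. Boc had signals of 2127 in Slc39a13-KO against 450 in wild-type, and 2045 in Slc39a13-KO against 473 in wild-type, a log2 ratio of 2.18 ± 0.09 (SD, n = 2 probe sets). Its last probe set was below the floor in both arrays and pointed the other way, at 4.58 in Slc39a13-KO against 25.5 in wild-type. The call of Boc thus rests on its 2 bright probe sets. Cdon, a close relative of Boc, was at 5411 in Slc39a13-KO and 942 in wild-type on its brighter probe set. Its other probe set was at 154 in Slc39a13-KO and below the floor in wild-type, so that its mean is a bound of at least 3.22-fold. Gas1, a membrane-anchored co-receptor, was not called at 1.71-fold, with 6675 in Slc39a13-KO against 3949 in wild-type, and 2801 in Slc39a13-KO against 1625 in wild-type. Lrp2, a large endocytic receptor, was below the floor in both arrays.

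Genes for the making and release of ligand were mostly too low to compare. Shh and Dhh, the other mammalian hedgehog ligands, were below the floor in both arrays, as were Scube1 and Scube2, which help release the ligand. Hhat, the enzyme that adds palmitate to hedgehog proteins, was at least 2.40-fold higher. Disp1, the transporter that releases the lipid-bearing ligand, was 2.55-fold lower. Its signals were 494 in Slc39a13-KO against 1075 in wild-type, and 128 in Slc39a13-KO against 380 in wild-type. Its log2 ratio of -1.35 is not far beyond the shift of the poly-A controls (-1.02, given further on). Hence the size of this difference goes with the scaling.

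Of 14 measured genes listed for transduction of the hedgehog signal, inhibitors among them, 2 were called higher and 0 lower. This is a small count beside the 8.01% and 5.93% of all measured genes. Evc2, which binds Smo at the base of the cilium, was at 1305 in Slc39a13-KO and 448 in wild-type, 2.92-fold higher. Ift88, part of the transport machinery of the cilium, was at 499 in Slc39a13-KO and 230 in wild-type, 2.17-fold higher. Its log2 ratio of 1.12 is close to the 2-fold threshold, so that its call goes with the scaling. Evc2 and Ift88 each rest on 1 measured probe set. Sufu, the inhibitor that binds Gli proteins, was not called (log2 ratio -0.26 ± 0.22, SD, n = 3 probe sets). Of 10 genes listed as hedgehog targets besides the axis itself, 7 were measured and 1, Mycn, was called. It was at 202 in Slc39a13-KO and below the floor in wild-type, at least 2.38-fold higher. This call rests on 1 probe set, measured through the Slc39a13-KO array alone. The other Mycn probe sets were below the floor in both arrays and pointed the other way. They were at 2.14 in Slc39a13-KO against 82.4 in wild-type, and at 7.68 in Slc39a13-KO against 13.9 in wild-type. Ccnd1, a cyclin and common target, had a log2 ratio of 0.19 ± 0.14 (SD, n = 3 probe sets), and the forkhead gene Foxf1 had 346 in Slc39a13-KO and 344 in wild-type. With 7 genes, 1 called is near the share called over all measured genes.

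Other genes of the PTH pathway, the transduction genes behind Pth1r and known targets, were called in both directions. Of 47 listed genes 40 were measured, of which 2 were called higher and 6 lower, beside 8.01% and 5.93% of all measured genes, with a median log2 ratio of -0.15, which is smaller than the shift of the poly-A controls given further on, so that its sign goes with the scaling. PTH itself and the related receptor Pth2r were below the floor in both arrays. Of the 31 measured transduction genes 0 were called higher and 3 lower, against the same 8.01% and 5.93%. Gnas, the stimulatory G protein through which Pth1r raises cyclic AMP, was bright on 1 probe set, at 22009 in Slc39a13-KO and 19444 in wild-type. Its measured probe sets differed in sign, from -0.38 to 1.03, with a log2 ratio of 0.28 ± 0.71 (SD, n = 3 probe sets), and it was not called. The phosphodiesterase Pde4b, which breaks down cyclic AMP, was at least 3.04-fold lower, and the adenylyl cyclase Adcy7 at least 2.64-fold lower. Both are bounds, since both lay below the floor in Slc39a13-KO, and their size also goes with the scaling. Nherf1, a scaffold that binds Pth1r, was 2.01-fold lower, at the threshold, with a log2 ratio (-1.01) no larger than the shift of the poly-A controls (-1.02), so that its direction goes with the scaling. The catalytic subunit of protein kinase A, Prkaca, was not called (log2 ratio -0.27 ± 0.70, SD, n = 2 probe sets).

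Genes that PTH is known to raise in osteoblasts differed in both directions, with 2 of 8 measured higher and 3 lower, again beside 8.01% and 5.93% of all measured genes. Fos, a subunit of the AP-1 factor, was at 7139 in Slc39a13-KO and 1494 in wild-type, 4.78-fold higher. Tnfsf11 (RANKL), the osteoclast differentiation factor, was at 198 in Slc39a13-KO and below the floor in wild-type, at least 2.33-fold higher. Rgs2, which curbs G protein signals, was 5.16-fold lower (log2 ratio -2.37 ± 0.04, SD, n = 3 probe sets), with 290 in Slc39a13-KO against 1522 in wild-type on its brightest probe set. Ptgs2, the inducible cyclooxygenase, was 5.44-fold lower, on 2 probe sets whose log2 ratios were -3.50 and -1.39. Il6, a cytokine, was below the floor in Slc39a13-KO and at 1194 in wild-type, which gives at least 14.0-fold lower. Other stimuli raise these genes too. Nr4a1 and Nr4a2, nuclear receptors that PTH raises quickly, were not called, with log2 ratios of 0.45 and 0.22 ± 0.52 (SD, n = 4 probe sets for Nr4a2). Sost, the Wnt inhibitor that PTH lowers in osteocytes, was below the floor in both arrays.

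**Figure D3:**
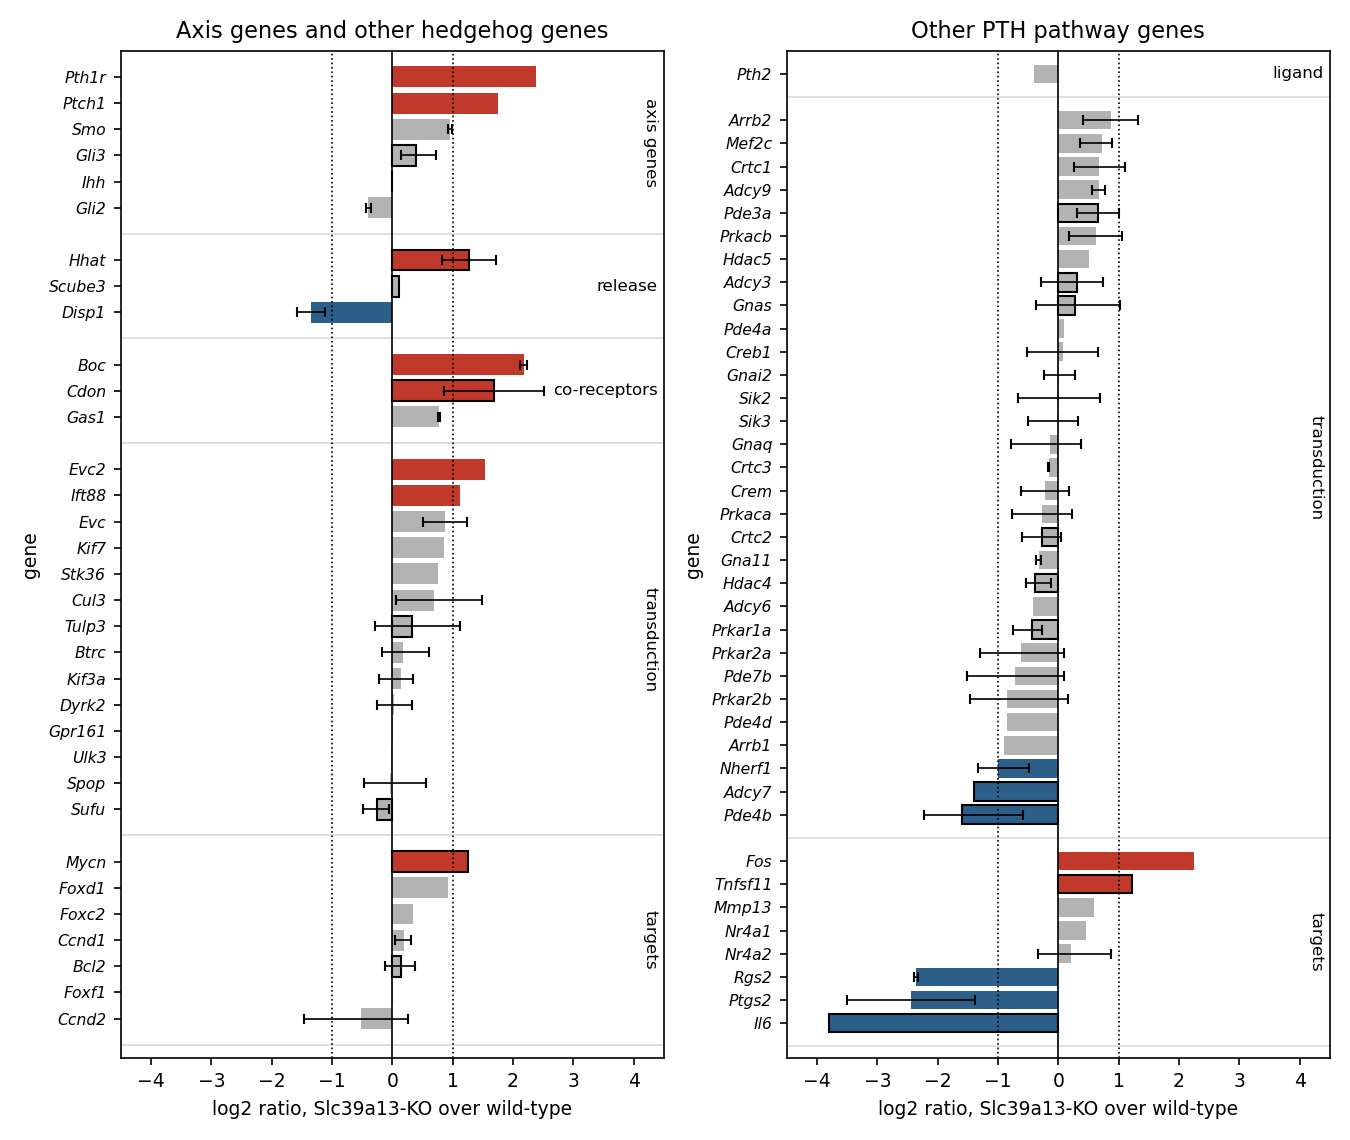
Horizontal, log2 ratios (Slc39a13-KO over wild-type) for the measured axis genes and other hedgehog genes (left) and the other PTH pathway genes (right), drawn as bars at the mean of a gene's probe sets, with ticks for the lowest and highest probe set. Red bars were called higher and blue bars lower, grey bars were not called, a black outline marks a bound set by the floor and dotted lines mark 2-fold; Boc (2.18) and Cdon (1.69) stand beside Ptch1 on the left, and Rgs2 (-2.37), Ptgs2 (-2.44) and Il6 (-3.81) stand lowest on the right.

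Several markers of other cells moved in the same arrays. Over all measured genes, 8.01% were called higher and 5.93% lower. Many of the markers called higher lay below the floor in wild-type, so that they counted as measured through the Slc39a13-KO array alone. Of 19 measured chondrocyte markers, 18 were called higher and 0 lower in Slc39a13-KO, and their summed signal was 175755 in Slc39a13-KO and 9388 in wild-type. Pth1r and Ptch1 are also expressed in cartilage, and the part of this shift in their values was not tested. The 1 measured marker that was not called, Epyc, had a log2 ratio of 0.98, and Snorc was below the floor. Markers of enlarging chondrocytes, the cells beside which Ihh is made, were called higher for 2 of 4 measured and lower for 0 (median log2 ratio 1.03, summed signal 893 in Slc39a13-KO and 462 in wild-type), with Col10a1 at 214 in Slc39a13-KO and below the floor in wild-type, and Panx3 at 213 in Slc39a13-KO and below the floor in wild-type. Of 11 smooth muscle and pericyte markers 0 were called higher and 7 lower, with a summed signal of 20974 in Slc39a13-KO and 52743 in wild-type. Macrophage and osteoclast markers were called higher for 6 of 10 measured and lower for 0. Their summed signals were 6990 in Slc39a13-KO and 5260 in wild-type. These sums include Ctsk, which was not called, at 2956 in Slc39a13-KO and 4227 in wild-type. Of those called, Lyz2 was above the floor in both arrays, at 2146 in Slc39a13-KO and 255 in wild-type. Adgre1, Cd68, C1qa, C1qb and Ctss were above the floor in the Slc39a13-KO array alone, and Itgam and Ptprc were below it in both. Adipocyte markers were higher for 3 of 5 and lower for 0 (summed 3026 in Slc39a13-KO and 933 in wild-type, Adipoq below the floor), and endothelial markers higher for 1 of 5 and lower for 2 (summed 765 in Slc39a13-KO and 1569 in wild-type, Pecam1 and Kdr below the floor).

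As to the label of the cells, the type I collagen genes were bright in both arrays, with Col1a2 at 25943 in Slc39a13-KO and 28503 in wild-type. Of the 7 measured osteoblast markers 3 were called higher and 0 lower, beside 8.01% and 5.93% of all measured genes. The osteoblast factor Sp7 was low, at 153 in Slc39a13-KO and 94.8 in wild-type, Alpl was at 197 in Slc39a13-KO and below the floor in wild-type, and Ibsp and Phex, of mature osteoblasts and osteocytes, were below the floor in both. Dmp1, of osteocytes, was at 383 in Slc39a13-KO and below the floor in wild-type, and Omd, a proteoglycan of bone, was at 24251 in Slc39a13-KO and 357 in wild-type, so the markers did not move as 1 group. The poly-A controls had lower signals in Slc39a13-KO on 24 of 24 probe sets (median log2 ratio -1.02), so that all directions above are relative to the bulk of genes.

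**Figure D4:**
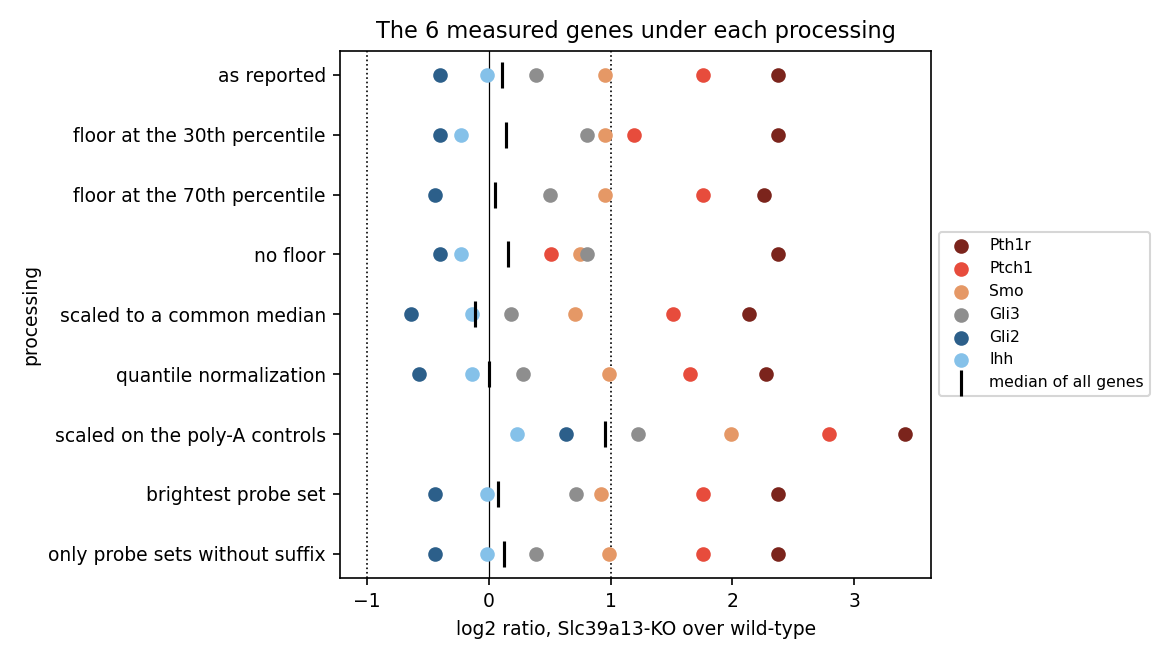
Horizontal, log2 ratios (Slc39a13-KO over wild-type) of the 6 measured axis genes under the reported processing and 8 alternatives (vertical), with black ticks for the median of all genes and dotted lines at 2-fold. Pth1r stays beyond the 2-fold line throughout (2.13 to 3.41), and Ptch1 falls to 0.51 with no floor. Scaling on the poly-A controls moves the 6 genes and the median of all genes (0.95) to the right, taking Gli2 and Ihh across 0.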

How the data were processed

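Total RNA of 2 osteoblast cultures, 1 per genotype, was labelled with biotin and hybridised to Mouse Genome 430 2.0 arrays. The submitters' processing notes name MAS5, without a version, for the deposited table, which holds 1 linear intensity per probe set and array; the methods of the study name gcRMA for its own analysis. The trimmed mean, with 2% removed at each end, was 500.003 in both deposited columns, which removes any difference in the amount of mRNA.

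Each array held 45101 probe sets, 64 of them controls, which were left out of gene values. The platform annotation gave 1 symbol to 34945 probe sets and several to 932; 34741 of the former were matched by gene ID to RefSeq (GRCm38.p6). Signals were floored at 85.1 and log2 ratios taken as Slc39a13-KO minus wild-type, averaged for each gene over its measured probe sets. A fold is a bound wherever the lower array was at the floor. Of the measured genes, 6569 were read by 1 probe set only. The number of arrays limits the precision. Alternatives were 3 floors, 3 scalings and 2 choices of probe sets.

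The genes and lists were chosen with earlier results of these data known. Named were all 9 axis genes and, of each pathway list, the called genes (at most 4 each way); other genes were picked with their values in view. Motif searches and figures used Python 3.11.15.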

Additional observations from a re-analysis of the deposited data

How the results depend on the processing

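Over 8 alternatives, Pth1r was called higher in all, with log2 ratios from 2.13 to 3.41, and Ptch1 in all but 1. With no floor, 1 axis gene was called higher (Pth1r, Ptch1 then having 0.51) and 1 lower (Gli1, from signals below the floor), in place of 2 and 0. Under scaling on the poly-A controls, 4 axis genes were called higher (Pth1r, Ptch1, Smo at 1.99 and Gli3 at 1.22), Gli2 turned to 0.64 and Ihh to 0.23, and the median of all genes was 0.95, with 96.4% of calls higher in place of 57.5%. That share was 38.3% with median and 47.5% with quantile scaling. Of the other hedgehog genes, 7 calls became 4 with the floor at the 70th percentile (21 measured) and 19 with poly-A scaling. Of the other PTH pathway genes, 8 became 5 (28 measured) and 19. The remaining alternatives gave 5 to 10 hedgehog calls and 8 to 12 PTH pathway calls. Poly-A and median scaling each shift every signal of an array by 1 factor. With no floor, the low probe sets of Ptch1 and Gli1 entered their values. The causes of the other moves were not tested. Over all measured genes, 3077 were called higher and 2049 lower with no floor, 1596 higher with the floor at the 30th percentile, 506 higher and 438 lower at the 70th, 654 higher with median scaling, and 5988 higher and 222 lower with poly-A scaling, against 983 and 727. No paired analysis was possible because each genotype has 1 array. Low signals, such as those of Gli1, Hhip and Ihh, limit what these arrays can show.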

Other observations

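Smo and the Gli factors work in the primary cilium, so a list of 40 further genes that build or serve the cilium was read, chosen after the values above were seen. Of these 38 were measured, and 36 had a log2 ratio above 0, against 58.3% of all measured genes. Of the 38, 8 were at least 2-fold higher in Slc39a13-KO osteoblasts and 0 lower, beside 8.01% and 5.93% of all measured genes. Their median was 0.50, which is 0.40 above the median of all genes, and this excess ran from 0.28 (floor at the 70th percentile, where 1 of 33 was called higher) to 0.53 (poly-A scaling) over the alternatives. With median scaling 28 of 38 were above 0, and 33 were above the median of all genes.

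The genes called higher came from several parts of the cilium. Dync2h1, the heavy chain of the motor that carries cargo back from the tip, was at 435 in Slc39a13-KO and 159 in wild-type, 2.74-fold higher. Ift140, of the train that this motor moves, was at 780 in Slc39a13-KO and 307 in wild-type, and Wdr19 of the same train was at least 2.48-fold higher. Ift80, of the outward train, had a log2 ratio of 1.31 ± 0.16 (SD, n = 2 probe sets). Tctn1 and Tctn2, of the gate at the base of the cilium, were 2.37-fold and 2.22-fold higher, and of the BBSome coat Bbs1 was at least 2.63-fold and Bbs2 2.49-fold higher. The lowest values were those of Ift27 (-0.22 ± 0.34, SD, n = 3 probe sets) and Ift43 (-0.12). Dync2h1, Ift140, Tctn1, Tctn2, Bbs1 and Bbs2 were each read by 1 measured probe set. Chondrocyte markers were higher in the same array, and their part in these values was not tested.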
